A study of Mus musculus with 3 samples.

Results

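Basophil-like cells made up a small share of cultures of mouse bone marrow grown for macrophages. The labels name the cultures as macrophages. Basophil-like cells numbered 29 of 7257 kept cells in the untreated culture and 38 of 8825 in the culture given vitamin D3. Both cultures together held 67 among 16082 kept cells. The whole series held 18226 kept cells. These include 2144 cells of a skin graft library, of which 10 also met the rule given next. Each cell was chosen by its own unique molecular identifiers (UMIs, each a counted RNA molecule). It had at least 5 UMIs over Mcpt8, Cpa3 and Prss34 together and at least 1 UMI over Fcer1a, Ms4a2 and Gata2 together. Kept cells had 300 or more genes detected, fewer than 100000 gene UMIs and under 10% of UMIs from mitochondrial genes.

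The study examined mouse immune cells at human skin grafts and, in culture, how the active form of vitamin D changes bone marrow cells. For the cultures, marrow of C57/BL6 mice was grown with the cytokine GM-CSF for 7 days. The VD3 culture (VD-Mac) then received 1 µM of 1,25-dihydroxycholecalciferol, active vitamin D, for 24 h, while the untreated culture (Co-Mac) did not. Each condition had 1 library of droplet-based 10x Chromium single-cell RNA, so no spread between cultures could be measured and no test was made. The number, age and sex of the mice behind each library were not given. Intervals below are exact 95% intervals and cover counting error within a library only. Levels are UMIs of a gene summed over the cells of a group, per 1000000 summed gene UMIs of those cells (CPM).

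Basophils are rare granulocytes of the blood that arise in the bone marrow, carry the high-affinity receptor for IgE, and store histamine and proteases in their granules. When the receptor is crosslinked, or when IL-3 or IL-33 acts on them, they release histamine and lipid mediators and make IL-4, IL-13 and IL-6. They share much of this gene program with mast cells, which differ by the surface receptor KIT and by another set of granule proteases.

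The untreated library held 7866 barcodes with 136905324 gene UMIs and the VD3 library 9794 barcodes with 124731240. Basophil-like cells were 0.400% of kept untreated cells (95% interval 0.268% to 0.573%) and 0.431% of kept VD3 cells (0.305% to 0.591%). The intervals overlapped, but they leave out the spread between cultures, so they cannot decide whether the share differed with VD3. The basophil-like cells summed to 621101 UMIs in the untreated and 504302 in the VD3 culture. The median basophil-like cell had 14734 UMIs and 3262 genes without VD3, and 7926 UMIs and 2412 genes with it, against 15807 and 12095 UMIs in the other kept cells. Depth varied widely among them, from 914 to 91725 UMIs per untreated cell and from 3579 to 51985 per VD3 cell. Their median mitochondrial share was 4.41% and 4.10%, against 5.31% and 5.61% in the other cells. Between the cultures, 15 kept barcodes had the same sequence, and 0 of these belonged to a basophil-like cell.

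The 6 genes of the rule chose the cells, so their levels are given as a description. Mcpt8 (ENSMUSG00000022157, chr14:56082166-56085273, minus strand, in GRCm38 coordinates of GENCODE M21, as all gene positions here) encodes a granule serine protease of mouse basophils. It stood at 5022 (95% interval 4847 to 5201) CPM in the untreated culture and 4287 (95% interval 4108 to 4472) CPM in the VD3 culture. Prss34 (ENSMUSG00000056399, chr17:25298394-25300165, plus strand), another secreted serine protease of basophils, stood at 5144 CPM in the untreated culture and 5735 CPM in the VD3 culture. Cpa3 (ENSMUSG00000001865, chr3:20215620-20242181, minus strand), the carboxypeptidase A of mast cells and basophils, stood at 1538 CPM in the untreated culture and 2306 CPM in the VD3 culture. Cells with at least 1 UMI numbered 29 of 29 untreated and 36 of 38 VD3 cells for Mcpt8, 29 of 29 untreated and 34 of 38 VD3 cells for Prss34 and 27 of 29 untreated and 37 of 38 VD3 cells for Cpa3, so most cells carried all of the proteases. In the other kept cells each of the proteases lay below 1 CPM in both libraries. Mcpt8 and Prss34 belong to families of related protease genes, so a part of their reads may stem from relatives.

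Fcer1a (ENSMUSG00000005339, chr1:173221284-173227214, minus strand), the IgE-binding chain of the receptor, had 617 CPM in the untreated culture and 476 CPM in the VD3 culture. Ms4a2 (ENSMUSG00000024680, chr19:11615523-11623719, minus strand), its signal-amplifying beta chain, had 488 and 399 CPM. Gata2 (ENSMUSG00000015053, chr6:88193891-88207032, plus strand), a zinc-finger transcription factor of basophils, mast cells and early progenitors, had 386 and 379 CPM. These genes were found in most cells too, Fcer1a in 23 of 29 untreated and 30 of 38 VD3 cells, Ms4a2 in 25 of 29 untreated and 34 of 38 VD3 cells and Gata2 in 28 of 29 untreated and 36 of 38 VD3 cells. The summed protease UMIs per cell ran from 5 to 782 with a median of 222 in the untreated culture, and from 10 to 588 with a median of 130 in the VD3 culture. The receptor and Gata2 sum had medians of 22 and 16 UMIs.

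Few cells lay near the thresholds of the rule. The untreated cell with the lowest protease sum inside had 5 protease UMIs and 1 Gata2 UMI among 30316 UMIs. It also had 104 UMIs of Lyz2, a macrophage and neutrophil lysozyme, and 80 of S100a8, a neutrophil gene. The next had protease sums of 24 and 26. Just outside were cells with 10, 8 and 6 protease UMIs and no receptor or Gata2 UMI, and a cell with 4 protease UMIs and 1 receptor or Gata2 UMI. In the VD3 culture the lowest sums inside were 10, 13 and 30, and cells with 24, 14, 7, 6 and 5 protease UMIs stayed outside because they had no receptor or Gata2 UMI. Thus 32 untreated and 43 VD3 cells reached the protease sum, of which 3 and 5 lacked a receptor or Gata2 UMI. Cells chosen by the rule held 98.7% and 98.3% of all protease UMIs of the kept cells.

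The genes that the rule did not use described the cells further. Cd200r3 (ENSMUSG00000036172, chr16:44943678-44981380, plus strand), a CD200 receptor-like molecule of basophils and mast cells, had 486 (95% interval 433 to 544) CPM in the untreated culture and 835 (95% interval 757 to 918.5) CPM in the VD3 culture, against 3.55 and 0.552 CPM in the other kept cells. Nearly every cell carried it, with a UMI in 28 of 29 untreated and 36 of 38 VD3 cells. Hdc (ENSMUSG00000027360, chr2:126593667-126619299, minus strand), the enzyme that makes histamine, had 322 (95% interval 279 to 369.9) CPM in the untreated culture and 315 (95% interval 268 to 368) CPM in the VD3 culture, against 0.553 and 1.05 CPM in the others. Cyp11a1 (ENSMUSG00000032323, chr9:58006411-58027023, plus strand), the mitochondrial enzyme that turns cholesterol into pregnenolone, had 1021 (95% interval 943 to 1103) CPM in the untreated culture and 1150.1 (95% interval 1058 to 1248) CPM in the VD3 culture, against 1.14 and 0.819 CPM. The genes for a surface receptor, for histamine and for steroid synthesis were therefore all detected in the basophil-like cells at levels far above those of the other cells. Itga2, the integrin chain CD49b used to sort basophils, was close to its detection limit, with 4 and 2 UMIs in all basophil-like cells of each culture.

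Free RNA in droplets gives some UMIs to cells that do not express a gene, and a gene is detected more often in deeper cells. Each cell was therefore also reduced at random to 1000 UMIs, which left out 1 untreated basophil-like cell and 0 VD3 cells. At that depth Cd200r3 had a UMI in 57.1% of untreated and 57.9% of VD3 basophil-like cells, where 96.6% and 94.7% had a UMI at full depth. In macrophages, taken as cells with at least 5 UMIs of Adgre1, Cd68 and Csf1r, the share was 0.304% and 0.105% at 1000 UMIs, and 8.74% and 1.47% at their full median depths of 23732 and 19789 UMIs. The shares in basophil-like cells thus stood far above the macrophage background. For Cyp11a1 the reduced shares were 64.3% and 68.4% in basophil-like cells (96.6% and 97.4% at full depth), against 0.0380% and 0.0525% in macrophages. For Hdc they were 35.7% and 23.7% (93.1% and 89.5% at full depth), against 0.114% and 0.105%. At equal depth all of these genes were thus found in far more basophil-like cells than macrophages.

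Of 5775 genes with 20 or more UMIs over the basophil-like cells, 568 were 2-fold or more higher than in the other kept cells of both cultures (9.84%) and 280 were 2-fold or more lower (4.85%). The median log2 ratio was 0.12. The basophil-like cells were picked by their RNA, so these counts describe them and test nothing. The 20 genes outside the rule with the largest ratios, among genes at 100 CPM or more and in at least 25% of the cells, ran from a log2 ratio of 12.07 for Grm6 to 3.81 for Rab44. Grm6, a metabotropic glutamate receptor gene, had 88.6 CPM in the untreated culture and 123 CPM in the VD3 culture, against 0.0379 and 0.00862 CPM in the other cells. Il1rl1, the IL-33 receptor ST2, had 101 and 147 CPM against 7.91 and 1.54 CPM. Hgf, hepatocyte growth factor, had 106 and 190.4 CPM, and Cd55, a membrane inhibitor of complement, had 124 and 113 CPM. In the other cells Hgf had 1.11 and 0.837 CPM and Cd55 0.394 and 0.345 CPM.

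The aldo-keto reductase genes Akr1c12, Akr1c13 and Akr1c18 also led the list. Akr1c18 (ENSMUSG00000021214, chr13:4132615-4150654, minus strand) encodes the reductase that inactivates progesterone, and it had 199.6 CPM in the untreated culture and 601 CPM in the VD3 culture against 0.356 and 0.0259 CPM in the others. Akr1c13 had 283 and 464 CPM and Akr1c12 137 and 139 CPM. The sequences of this gene family are alike, so reads may be shared out unevenly among its members. Among the 20 leading genes were others that encode a protease or an inhibitor of proteases. Slpi, a secreted inhibitor of serine proteases, had 1769 CPM in the untreated culture and 2572 CPM in the VD3 culture against 68.3 and 67.6 CPM. Ctsg, the granule protease cathepsin G, had 1512 and 1003 CPM against 23.8 and 10.2 CPM. Serpinb1a (ENSMUSG00000044734, chr13:32842092-32851185, minus strand), an intracellular inhibitor of granule proteases, had 631 and 169 CPM against 47.9 and 4.71 CPM. Cst7, the cathepsin inhibitor cystatin F, had 113 and 109 CPM.

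The remaining leading genes were of mixed roles. Plac8, found in many granulocytes and progenitors, had 1167 and 918 CPM, and Rab44, a Rab GTPase of granulocytes, had 106 and 202 CPM. Sept1, a septin of the cytoskeleton, had 145 and 176 CPM. Tespa1, an adaptor of calcium signalling, had 93.4 and 167 CPM, Spns3, a transporter family member, had 101 and 133 CPM, and Mns1, a filament-associated protein, had 203 and 105 CPM. All 20 leading genes were above the other cells in each library. Neutrophil precursors, cells with at least 5 UMIs of Elane, Mpo and Prtn3, came nearer for some of them. They had 1142 and 284 CPM of Plac8, 505 and 58.8 CPM of Serpinb1a and 838 and 340 CPM of Ctsg. For Cst7 they had 87.6 and 36.1 CPM and for Rab44 61.3 and 69.7 CPM, but for Cyp11a1 only 26.9 and 8.32 CPM.

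Receptors for the growth and alarm signals of basophils were present. Il3ra, the IL-3 receptor chain, had 78.9 CPM in the untreated culture and 101 CPM in the VD3 culture, against 28.3 and 31.2 CPM in the other cells. Its partner Csf2rb, the shared beta chain, had 802 and 621 CPM, a level near the 795 and 866 CPM of the others. Crlf2, the receptor for TSLP, had 116 and 192 CPM and Il18rap, a chain of the IL-18 receptor, 49.9 and 61.5 CPM, against 10.6 and 2.47 CPM. Ptger3, a receptor for prostaglandin E2, had 56.4 and 57.5 CPM against 1.64 and 1.10 CPM. Of the 11 cytokine receptor genes compared, 4 were 2-fold or more above the other cells (Il1rl1, Il18rap, Il18r1 and Crlf2) and 2 were 2-fold or more below, against 9.84% and 4.85% of all genes. The adhesion chain Itgb7 had 147 and 238 CPM against 17.8 and 51.4 CPM. Cd63, a granule membrane protein that reaches the surface when basophils degranulate, had 2019 and 2011 CPM against 697 and 517 CPM. Of 15 surface genes compared, which include Il3ra and Csf2rb, 6 were 2-fold or more higher and 1 lower. Cd200r4, a close relative of Cd200r3, had 261 and 202 CPM, so part of the reads of either could stem from its relative.

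The signalling machinery behind the IgE receptor was detected in the same cells. Fcer1g, the shared gamma chain, had 1602 CPM in the untreated culture and 1614 CPM in the VD3 culture, against 1237 and 827 CPM in the others, which also use it for other Fc receptors. The adaptors Lat, with 58.0 and 43.6 CPM against 0.872 and 1.26 CPM, and Lat2, with 299 and 268 CPM against 64.7 and 47.5 CPM, stood above the other cells. The kinases Syk (69.2 and 83.3 CPM) and Lyn (54.7 and 53.5 CPM), which act next to the receptor, were near the level of the other cells (102 and 109 CPM for Syk). Of 18 genes of this pathway compared, 4 were 2-fold or more above the other cells and 1 below, against 9.84% and 4.85% of all genes.

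Lineage transcription factors were compared in the same way. Of 20 factor genes with 20 or more UMIs, 8 were 2-fold or more above the other cells and 3 below, against 9.84% and 4.85% of all genes. Cebpa, a granulocyte factor, had 94.99 CPM in the untreated culture and 79.3 CPM in the VD3 culture against 30.0 and 9.63 CPM. Runx1 had 239.9 and 295 CPM against 86.6 and 68.7 CPM, and Ikzf2, the zinc-finger protein Helios, had 124 and 97.2 CPM against 9.17 and 9.24 CPM. Irf8, a factor of monocytes and dendritic cells, had 38.6 and 121 CPM against 133 and 308 CPM, below the other cells. Mitf, a factor of mast cells, had only 4 and 5 UMIs. Gata1 had 17 and 2 UMIs, found in 12 of 29 untreated and 2 of 38 VD3 cells, too few for a ratio between the cultures.

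The cytokine genes Il4 and Il13 were at low levels. Il4 had 12 and 24 UMIs, which is 19.3 (95% interval 9.98 to 33.7) CPM in the untreated culture and 47.6 (95% interval 30.5 to 70.8) CPM in the VD3 culture, against 0.00758 and 0.0172 CPM in the others. The untreated UMIs lay in 12 cells with 1 UMI each and the VD3 UMIs in 14 cells with at most 3 each. At 1000 UMIs per cell the share with Il4 was 7.14% and 7.89%, against 41.4% and 36.8% at full depth. In macrophages it was 0.0380% and 0% (95% limit 0.193%). Il13 had 1 and 7 UMIs. Il6 had 53 and 45 UMIs (85.3 and 89.2 CPM) in 15 of 29 untreated and 7 of 38 VD3 cells, against 2.96 and 2.35 CPM in the others. Of the 45 VD3 UMIs 21 lay in 1 cell, which is among those called mixed below. Il5, Il9, Il10, Csf2 and Areg had 0 UMIs in every basophil-like cell, which at the 95% limit allows up to 5.94 CPM untreated and 7.31 CPM with VD3. The chemokine genes Ccl6, with 4403 and 6575 CPM against 2589.8 and 1655 CPM, and Ccl9, with 1248 and 1388 CPM against 813 and 672 CPM, had levels in macrophages of 4074 and 3375 CPM and of 1228 and 1280.3 CPM. Of 12 cytokine and chemokine genes compared, 7 were 2-fold or more above the other cells and 3 below, against 9.84% and 4.85% of all genes.

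Genes for amines, lipid mediators and granules came next. Slc18a2, the vesicle transporter that loads amines, had 59.6 CPM in the untreated culture and 67.4 CPM in the VD3 culture, against 0.341 and 0.423 CPM in the others. Alox5, the first enzyme of leukotriene synthesis, had 246 and 367 CPM against 28.7 and 21.8 CPM, and its helper Alox5ap had 1008 and 1051 CPM against 302 and 250.1 CPM. Alox15, another lipoxygenase, had 49.9 and 67.4 CPM against 0.341 and 0.00862 CPM. Ltc4s, which joins glutathione to leukotrienes, was lower than in the other cells, with 48.3 and 43.6 CPM against 138 and 148 CPM. Srgn, the core protein that holds granule contents, had 2834 and 3101 CPM against 425 and 730.0 CPM. Tph1 and Ddc, enzymes of serotonin synthesis, had 0 UMIs. Of 13 genes of this list compared, 9 were 2-fold or more above the other cells and 2 below, against 9.84% and 4.85% of all genes.

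**Figure D1:**
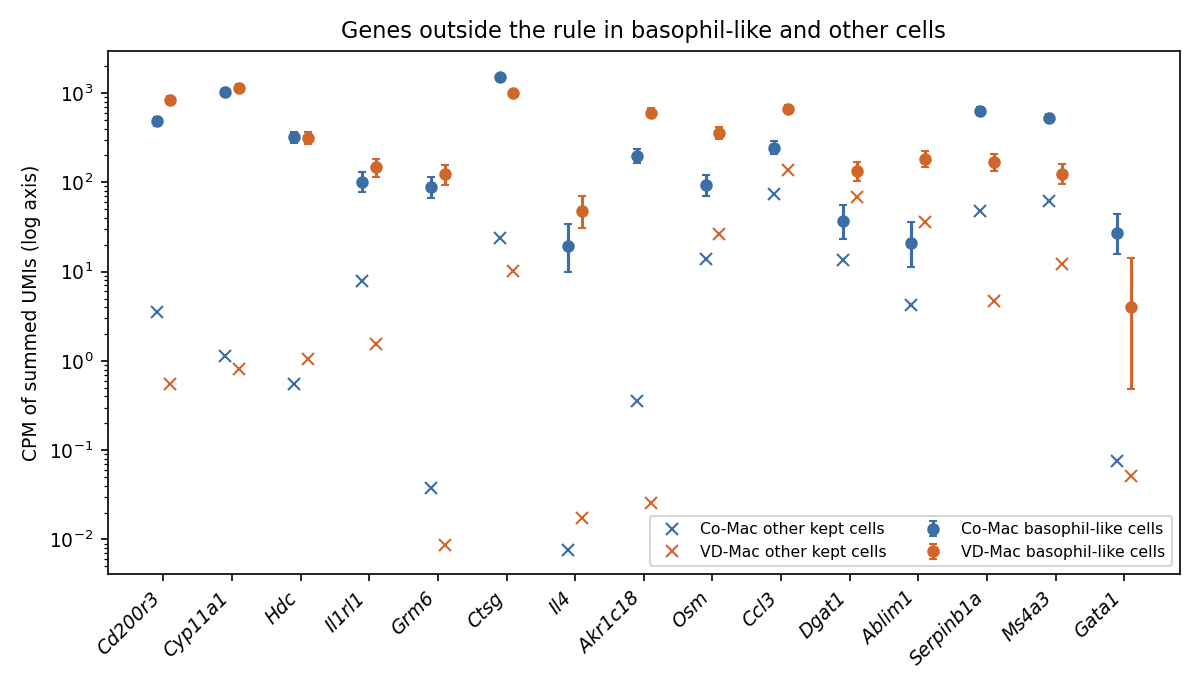
Levels of genes outside the rule, in CPM of summed UMIs (log axis), with points for basophil-like cells and their exact 95% Poisson intervals and crosses for all other kept cells of the same library (blue Co-Mac, orange VD-Mac). Points lay above the crosses of their library for all 15 genes, and Akr1c18, Osm, Ccl3, Dgat1 and Ablim1 were higher, Serpinb1a and Ms4a3 lower, in VD-Mac than in Co-Mac.

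Markers of mast cells were near 0. Of 12 mast cell genes, 9 had no UMI in any basophil-like cell, among them the proteases Cma1, Mcpt4 and Tpsab1 and the receptor Mrgprb2. Kit had 1 and 1 UMIs. The whole list summed to 6 and 6 UMIs (9.66 and 11.9 CPM), with 3 and 1 UMIs of Tpsb2 and 2 and 4 UMIs of Tpsg1, against 1.93 and 30.8 CPM in the other cells. Kit and the listed mast cell proteases were thus at or near 0. The name basophil-like follows the genes of the rule, so the presence of those genes does not support it. Progenitor genes were low as well: Flt3 had 0 UMIs, and Gata2 gave most of the list's 269 and 217 UMIs. B cell markers summed to 7 and 4 UMIs, with 0 for 6 of 8 genes, Cd79a included. T, NK and innate lymphoid cell markers summed to 26 and 15 UMIs, with 25 and 4 of Nkg7 and 1 and 10 of Rora, and Cd3d, Cd3e, Cd3g, Trac, Klrb1c and Ncr1 had 0. Erythroid and megakaryocyte markers summed to 157 and 57 UMIs, or 253 and 113 CPM, below the 597 and 298 CPM of the other cells. Pf4, a platelet chemokine and the most abundant of them in the untreated culture, had 127 and 15.9 CPM against 558 and 291 CPM. Hba-a1 was at 0, while Itga2b, the integrin chain CD41, had 75.7 and 67.4 CPM against 2.77 and 2.99 CPM in the others.

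Markers of macrophages and dendritic cells were lower than in the other cells but not absent. The 16 genes summed to 3177 and 2119 UMIs (5115 and 4202 CPM), against 17879 and 13382 CPM in the other kept cells. Cd74, the invariant chain of MHC class II, was the most abundant of them, and Flt3 had 0 UMIs. Of 13 genes compared, 11 were 2-fold or more below the other cells and 1 above, against 4.85% and 9.84% of all genes. Neutrophil markers summed to 349 and 236 CPM against 5546 and 6507 CPM, with Retnlg, Camp, Ltf and Mmp9 at 0. The most abundant were S100a8 untreated (102 UMIs, 80 of them in 1 cell) and Ly6g with VD3 (37 UMIs, 31 of them in 1 cell). Of 5 neutrophil genes compared, 3 were 2-fold or more below the other cells and 2 above. Of the markers of neutrophil precursors, Elane had 3 and 2 UMIs and Fcnb 0, while Ctsg and Ms4a3 carried most of the list's 2145 and 1212 CPM. Mpo, the peroxidase of granulocyte precursors, had 67.6 and 61.5 CPM against 6.71 and 2.98 CPM in the others.

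The macrophage signal sat in few cells, most of them deep. A basophil-like cell was called mixed when its share of macrophage and dendritic cell UMIs, or of neutrophil UMIs, was over the share in all macrophages, or neutrophils, of its library divided by 4. By this measure 5 untreated and 7 VD3 cells were mixed. They had a median of 56435 and 28757 UMIs, against 12983 and 7452 in the 24 and 31 unmixed cells, though 2 of the mixed VD3 cells had 7648 and 5345 UMIs. They held 41.7% and 37.0% of all UMIs of the basophil-like cells but 92.9% and 89.7% of their macrophage and dendritic cell UMIs. They were chosen by such shares, so the last values follow in part from that choice. Their median protease sums were 52 and 81 UMIs, against 237 and 148. The macrophage share of mixed cells ran from 0.859% to 1.59% untreated and from 0.571% to 1.68% with VD3, while the highest unmixed shares were 0.434% and 0.370%, near the limits of 0.488% and 0.380%. Whether these droplets held more than 1 cell was not tested, and mixed cells were kept in all levels and ratios unless stated.

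Leaving out the mixed cells raised the levels of the genes that mark the cells. Without them Mcpt8 had 8367 and 6209 CPM in the untreated and VD3 cultures, Prss34 8386 and 8243 CPM and Cpa3 2614 and 3404 CPM. The receptor chain Fcer1a had 989 and 664 CPM, Ms4a2 801 and 589 CPM and Gata2 591 and 526 CPM. Of the genes outside the rule, Cd200r3 had 799 and 1171 CPM, Cyp11a1 1625 and 1609 CPM and Hdc 497 and 343 CPM. The untreated levels of these genes were thus over 1.5 times those with mixed cells, and the VD3 levels less than that.

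**Figure D2:**
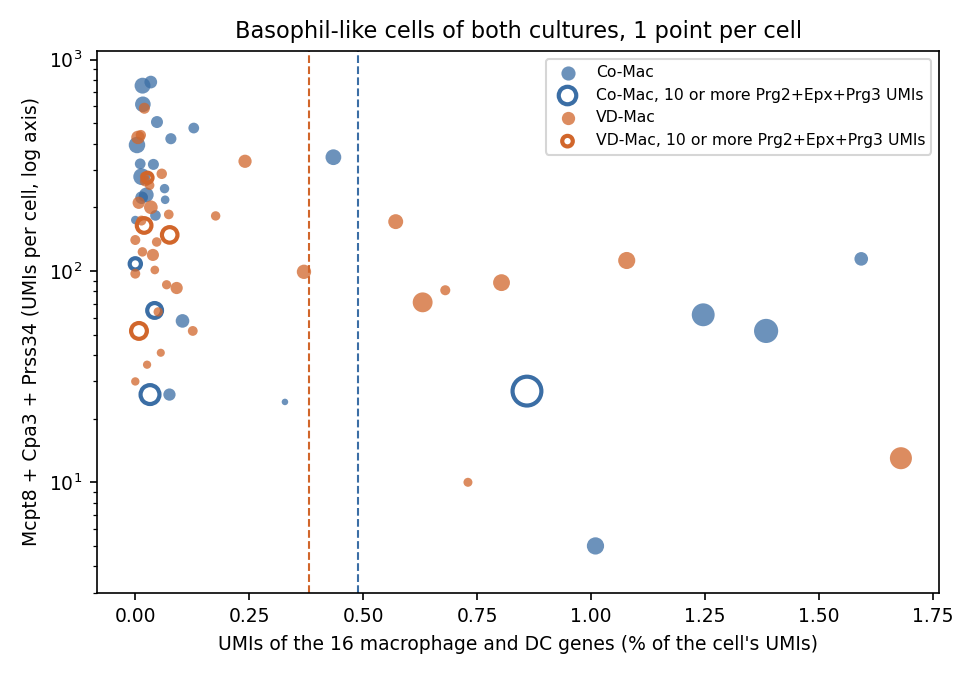
Each circle is a basophil-like cell, placed by UMIs of 16 macrophage and dendritic cell genes as a percentage of its UMIs (x axis) and by summed UMIs of Mcpt8, Cpa3 and Prss34 (y axis, log scale), with circle size growing with its UMIs, open circles for cells with at least 10 UMIs of Prg2, Epx and Prg3 together, and dashed lines at the limit for mixed cells of each library. Most cells lay at low macrophage share and high protease sum, and the mixed cells to the right of the lines had at most 114 (Co-Mac) and 171 (VD-Mac) protease UMIs.

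Some basophil-like cells carried RNA of eosinophil granules. Prg2, the major basic protein of eosinophils, had 4808 CPM in the untreated culture and 2959 CPM in the VD3 culture, against 1.83 and 5.54 CPM in the other cells, but its UMIs lay in 4 and 6 cells. A limit of 10 UMIs over Prg2, Epx and Prg3, set after these values were seen, separated 4 untreated and 4 VD3 cells. They held 56 to 1463 such UMIs untreated and 16 to 942 with VD3, while the rest held 0 untreated and at most 3 with VD3. Epx, the eosinophil peroxidase, was in all 4 of these untreated cells (3875 CPM, or 6735 CPM without 1 mixed cell) and in 2 of the VD3 cells (886 CPM for the group). Among other kept cells 2 untreated and 4 VD3 cells also reached 10 such UMIs.

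These cells differed from the remaining basophil-like cells in other genes too. Of the 4 untreated cells 1 was a mixed cell with a macrophage share of 0.859% and 91725 of their 160769 UMIs, so the values that follow leave mixed cells out and rest on 3 untreated and 4 VD3 cells. Cebpe, a factor of late granulocyte development, had 1057 CPM in them and 23.9 in the rest of the untreated cells, and 586 with VD3, where the rest had 1 UMI. It was uneven among them, with 0 UMIs in the untreated cell with 56 eosinophil granule UMIs and in the VD3 cell with 16. Arsb, a lysosomal sulfatase, had 695 against 64.9 and 417 against 45.7 CPM. Fcer1a was lower in them, with 188 against 1178 CPM untreated and 91.2 against 847 with VD3. Cd200r3 was also lower, with 319 against 912 and 234 against 1469.9 CPM. Ms4a2 kept no direction, with 883 against 782 CPM untreated and 391 against 652 with VD3, and with the mixed cells it was 411 against 515 CPM untreated. Their median depth was 21249 UMIs against 12619 untreated, and 22262.5 against 7315 with VD3. They were too few for more than these values.

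Part of the basophil-like cells showed genes of cell division. The 20 genes of the G2 and M phases summed to 2985 and 2354 CPM, against 1165 and 1113 CPM in the other cells, and 15 of 20 were 2-fold or more above them, against 9.84% of all genes. Neutrophil precursors had more, with 3050 and 3516 CPM, and macrophages 1686 and 1967 CPM, so these levels were not particular to the basophil-like cells. Mki67, the proliferation antigen Ki-67, had a UMI in 25% and 13.2% of basophil-like cells reduced to 1000 UMIs (58.6% and 34.2% at full depth), against 12.0% and 10.7% of macrophages. Their share of UMIs in G2 and M genes had a median of 0.203% and 0.0406% and reached 1.02% and 1.05%. At a limit of 0.2%, chosen after the values were seen, 15 of 29 untreated cells (51.7%, 95% interval 32.5% to 70.6%) and 11 of 38 VD3 cells (28.9%, 15.4% to 45.9%) lay above. The intervals overlapped, and 7 and 6 cells lay within 2-fold of the limit. Among macrophages 30.8% and 31.1% lay above it. Cells above were deeper, with medians of 24108 against 10429 UMIs untreated and 16962 against 7438 with VD3. The part of depth and free RNA in these shares was not tested.

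Cells above and below this limit differed in other genes, chosen after their values were seen. Mixed cells and cells with eosinophil granule RNA were left out here, which left 10 cells above and 11 below the limit untreated, and 6 and 21 with VD3. Mns1 had 495 and 69.5 CPM above and below the limit in the untreated culture and 351 and 48.2 CPM with VD3. Plac8, Ctsg, Fcer1a and Ms4a2 were higher above the limit in both cultures too, though Ms4a2 only slightly with VD3 (720 and 632 CPM). Over all basophil-like cells, Fcer1a and Ms4a2 were instead lower above the limit with VD3. Their levels there were 419 and 519 CPM for Fcer1a and 295 and 477 CPM for Ms4a2. Other genes were lower above the limit. Akr1c18 had 84.4 and 738 CPM above and below the limit untreated, and 111 and 1430.0 CPM with VD3. The chemokine Ccl3 had 113 and 990.3 CPM, and 794 and 1243 CPM with VD3, and Osm had 73.1 and 235 CPM, and 36.9 and 605 CPM with VD3. Ccl6, Cd200r3, Cyp11a1 and Hgf were also lower above the limit in both cultures. Ms4a3, a membrane protein of granulocyte progenitors, did not keep a direction in these cells, with 116 and 40 UMIs untreated (653 and 347 CPM) and 0 and 13 UMIs with VD3. Over all basophil-like cells Ms4a3 was higher above the limit in both cultures, at 687 and 208 CPM untreated and 230 and 45.3 CPM with VD3. Slpi had 366 and 8200.2 CPM untreated but nearly equal levels with VD3, at 3381 and 3583 CPM. Over all basophil-like cells its VD3 levels were 885 and 3846 CPM. With few cells on each side, single cells weigh in these levels.

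The comparison of VD3 with untreated cells asks which genes of basophil-like cells differed after 24 h of active vitamin D. Of 5775 genes with 20 or more UMIs, 175 were 2-fold or more higher with VD3 (3.03%) and 359 were 2-fold or more lower (6.22%), with a median log2 ratio of -0.04. With mixed cells left out, 3964 genes could be compared, of which 148 were higher and 189 lower. The genes of the rule were not 2-fold apart between the cultures: the log2 ratio was -0.23 (95% interval -0.31 to -0.15) for Mcpt8, 0.16 (95% interval 0.08 to 0.23) for Prss34 and 0.58 (95% interval 0.46 to 0.71) for Cpa3. Fcer1a was at -0.37, Ms4a2 at -0.29 and Gata2 at -0.03. Among genes outside the rule, Hdc was at -0.03 (95% interval -0.34 to 0.28) and Cyp11a1 at 0.17 (95% interval 0.01 to 0.34), while Cd200r3 was higher with VD3 at 0.78 (95% interval 0.56 to 1.00), under 2-fold. When 2 receptor and Gata2 UMIs were required Cd200r3 was at 1.01, past 2-fold. The ratios of the rule genes describe cells that were chosen by those genes.

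Ablim1, Dgat1 and Asb2 were among the genes higher with VD3. Ablim1 (ENSMUSG00000025085, chr19:57032733-57314919, minus strand), an actin-binding LIM protein, rose from 13 UMIs in 8 cells to 92 UMIs in 27 cells, or from 20.9 to 182 CPM. Its log2 ratio was 3.12 (95% interval 2.28 to 4.09), and in the other kept cells it was 3.11, a nearly equal value. Dgat1 (ENSMUSG00000022555, chr15:76502015-76511953, minus strand), which makes triglycerides, went from 37.0 to 133 CPM and from 14 to 27 cells, a log2 ratio of 1.84 (95% interval 1.14 to 2.59), beside 2.37 in the others. Asb2, a subunit of a ubiquitin ligase that targets actin-linked filamins, went from 20.9 to 99.1 CPM (log2 ratio 2.24, 95% interval 1.34 to 3.25), beside 3.51. These genes moved in the same direction in basophil-like and other cells. With mixed cells left out their log2 ratios were 2.97, 1.54 and 1.86.

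Cytokine genes higher with VD3 were Osm, Ccl3 and Il4. Osm, the cytokine oncostatin M, went from 93.4 to 357 CPM, with 58 and 180 UMIs and a log2 ratio of 1.93, beside 0.93 in the other cells. It was in 18 of 29 untreated and 17 of 38 VD3 cells at full depth, and in 7.14% and 15.8% of cells reduced to 1000 UMIs, with overlapping intervals. Ccl3, a chemokine, went from 245 to 668 CPM (log2 ratio 1.45, 95% interval 1.17 to 1.74), beside 0.90 in the others, and its log2 ratio was 0.98, under 2-fold, when each cell was weighted the same. Il4 was at 1.30 (95% interval 0.24 to 2.43) with 12 and 24 UMIs, and at 0.90, under 2-fold, without the cells that carried eosinophil granule RNA. Akr1c18 went from 199.6 to 601 CPM (log2 ratio 1.59, 95% interval 1.28 to 1.90), with a UMI in 15 untreated and 15 VD3 cells. When each cell was weighted the same its log2 ratio was 0.37, under 2-fold. Osm, Ccl3 and Akr1c18 were at higher levels in cells below the G2 and M limit, which were 14 of the untreated and 27 of the VD3 cells. The part of this mix in their ratios was not tested.

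Further genes higher with VD3 rested on smaller counts. Cdkn1b, the cell cycle inhibitor p27, went from 10 to 32 UMIs (log2 ratio 1.98, 95% interval 0.92 to 3.17) and from 9 to 21 cells. Lama5, a laminin chain, went from 6 to 24 UMIs (log2 ratio 2.30, 95% interval 0.97 to 3.88) and was almost absent from the other cells, at 0.106 and 0.0862 CPM. Pdcl, Phkb and Rbm18 went from 4 to 18, from 4 to 17 and from 5 to 16 UMIs. Unmixed cells held 3 and 7 UMIs of Pdcl, 1 and 9 of Phkb and 2 and 12 of Rbm18. Without mixed cells the log2 ratio was 1.36 for Cdkn1b and 1.67 for Lama5. Tgfbr2, a receptor chain for TGF-beta, went from 20.9 to 69.4 CPM (log2 ratio 1.73, 95% interval 0.78 to 2.77, with 3 and 16 UMIs in unmixed cells), beside 1.84 in the others, and its log2 ratio was 0.75 when 2 receptor and Gata2 UMIs were required. Ly6g, a neutrophil surface gene of a large family, had 0 untreated and 37 VD3 UMIs, at least 15.2-fold higher against a floor of 3 counts, but 31 of them lay in 1 cell.

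Genes lower with VD3 included Serpinb1a and Ms4a3. Serpinb1a went from 631 to 169 CPM, a log2 ratio of -1.90 (95% interval -2.26 to -1.56), beside -3.35 in the other cells. It still had a UMI in 23 of 38 VD3 cells, against 28 of 29 untreated cells. Ms4a3 went from 528 to 125 CPM (log2 ratio -2.08, 95% interval -2.49 to -1.69), beside -2.33 in the others, and from 17 to 8 cells. With mixed cells left out the log2 ratios were -2.02 and -2.47, so both stayed past 2-fold. Myb, a progenitor factor, went from 45 to 12 UMIs (log2 ratio -1.61, 95% interval -2.66 to -0.66), and Nkg7, a granule membrane protein, from 25 to 4 UMIs (log2 ratio -2.34, 95% interval -4.33 to -0.81). Above the G2 and M limit lay 15 of 29 untreated and 11 of 38 VD3 cells, and the part of this mix in the ratios was not tested. Without the cells with eosinophil granule RNA the log2 ratio of Myb was -0.70, under 2-fold. Anxa1, annexin A1, went from 1098 to 482 CPM (log2 ratio -1.19, 95% interval -1.41 to -0.97), and Ptgs1, cyclooxygenase 1, from 37 to 4 UMIs (log2 ratio -2.91, 95% interval -4.86 to -1.43). Unmixed cells held 14 and 1 of these Ptgs1 UMIs, too few for a ratio there. Anxa1 was under 2-fold without the eosinophil granule cells, at -0.83.

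Several of the largest decreases rested on few cells. Ccl2, a monocyte chemokine, had 96 and 2 UMIs, and all of them lay in mixed cells. Vcam1, an adhesion molecule, had 45 UMIs in 1 untreated cell and 0 with VD3, at least 12.2-fold lower against the floor of 3 counts. Ear2, an eosinophil-associated ribonuclease with close relatives, had 38 and 0 UMIs, at least 10.3-fold lower, but unmixed cells held 9 and 0. Tcrg-C1, a constant segment of the gamma T cell receptor with related segments, had 52 and 3 UMIs, of which 36 lay in 1 untreated cell. Ccdc80, a matrix protein, had 70 and 2 UMIs, with 41 in 1 cell. Epx went from 623 to 68 UMIs (log2 ratio -2.90, 95% interval -3.28 to -2.53), all within the cells with eosinophil granule RNA. Thoc1, of an RNA export complex, had 19 and 3 UMIs, and the unnamed gene AU022793 had 18 and 3 UMIs, in 10 and 5 untreated cells. Unmixed cells held 10 and 3 UMIs of Thoc1 and 3 and 2 of AU022793, too few for a ratio for either.

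Some genes below the level of the other cells had many of their UMIs in mixed cells. Higher with VD3 were Il1b (2 and 23 UMIs), Hbegf (2 and 22 UMIs), Pla2g7 (7 and 64 UMIs) and Tgm2 (2 and 18 UMIs), and lower were Fn1 (125 and 1 UMIs), Plet1 (127 and 2 UMIs), Dab2 (48 and 1 UMIs), Cxcl3 (36 and 1 UMIs) and Mmp12 (394 and 13 UMIs). Il1b and Cxcl3 are inflammatory cytokines, and Fn1 and Mmp12 act in the extracellular matrix. The unmixed cells held 0 UMIs of Fn1 and Plet1 in either culture and 10 and 1 of Mmp12. They held 0 and 8 UMIs of Il1b, 1 and 7 of Hbegf, 1 and 18 of Pla2g7 and 0 and 11 of Tgm2. In the macrophage and dendritic cell list 1 of 13 genes was 2-fold or more higher with VD3 (Adgre1, at 0.58 and under 2-fold without mixed cells) and 6 were lower, against 3.03% and 6.22% of all genes, with a median log2 ratio of -0.96. Without mixed cells 7 could be compared, of which 2 were higher and 0 lower, against 3.73% and 4.77% of all genes. Mixed cells were defined by this same list, so that count follows in part from the filter and tests nothing. The part of mixed cells in these differences was not tested beyond leaving them out.

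Several gene groups were compared with all genes, of which 3.03% were higher and 6.22% lower. The groups are small, so a single gene is a large share of a group. Of 15 surface genes 0 were higher and 1 lower with VD3, with a median log2 ratio of -0.01. Of 18 IgE receptor signalling genes 0 were higher and 2 lower, with a median of -0.01. Prkcd, 1 of the lower genes, was at -1.002, or 0.25 under a limit of 5% mitochondrial UMIs. Without mixed cells 0 of 13 of these genes were lower. Both medians were close to that of all genes. Of 11 cytokine receptor genes 2 were higher (Tgfbr2, and Il7r at 1.09, or 0.77 without mixed cells) and 0 lower, with a median of 0.50. Of 12 cytokine and chemokine genes 3 were higher (Osm, Ccl3 and Il4) and 2 lower (Cxcl2 and Cxcl3, with 1 and 2 and 1 and 0 UMIs in unmixed cells), with a median of 0.23. Of 13 amine, lipid and granule genes 0 were higher and 3 lower (Serpinb1a, Anxa1 and Ptgs1), and of 20 transcription factors 1 (Irf8) and 1 (Myb). Unmixed cells held 3 and 7 of the 24 and 61 UMIs of Irf8, too few for a ratio there. The medians of these groups were -0.03 and -0.04. Of 17 S phase genes 0 were higher and 0 lower, with a median of 0.20. Without the eosinophil granule cells 1 of 15 was higher and 2 were lower, with a median of -0.31. Under a limit of 5% mitochondrial UMIs 3 of 14 were higher. Of 20 G2 and M genes 0 were higher and 2 lower (Plk1, and Bub1 with 13 and 2 UMIs in unmixed cells), with a median of -0.39. Without mixed cells 5 of 18 G2 and M genes were lower, among them Plk1 (-1.66) and Mki67 (-1.05), and 10 of 19 without the deepest 5% of cells. Of 12 immediate early genes 2 were higher (Atf3, with 0 and 5 UMIs in unmixed cells, and Dusp1 at 1.25, or 0.79 with each cell weighted the same) and 0 lower, with a median of 0.55. Without the eosinophil granule cells 5 of 11 immediate early genes were higher. Of all genes, 3.99% were higher and 5.92% lower without those cells, and 3.73% and 4.77% without mixed cells. Under 5% mitochondrial UMIs 3.40% and 4.78% of all genes were higher and lower, and without the deepest 5% of cells 4.13% and 5.49%.

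Direct targets of vitamin D were measured as well. Cyp24a1, the enzyme that breaks down active vitamin D and a direct target of its receptor, had 0 UMIs in 29 untreated cells (exact 95% interval up to 11.9% of cells) and 85 UMIs in 6 of 38 VD3 cells. Of these UMIs 80 lay in 1 mixed cell with 51985 UMIs. Against a floor of 3 counts the ratio was at least 34.9-fold, and it rested on that cell. The 31 unmixed VD3 cells had 4 UMIs in 4 cells, which is 12.9% of cells (3.63% to 29.8%) and 12.6 CPM at a median depth of 7452 UMIs. In the same culture 85.7% of macrophages had a UMI, with 582 CPM, as did 85.7% of neutrophil precursors, with 985 CPM. Neutrophils, at a median of 6104 UMIs, had a UMI in 30.3% of cells (25.9% to 34.9%), with 289 CPM. The intervals of the shares overlapped between unmixed basophil-like cells and neutrophils, while the CPM of the former (95% interval 3.43 to 32.2) was lower. Mixed cells were left out of the basophil-like cells only. The macrophage and dendritic cell genes had 8047 CPM in these neutrophils and 5154 CPM in the precursors. The part of such RNA in their Cyp24a1 was not tested. Free RNA of this abundant gene could not be told apart from expression in so few UMIs.

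Vdr, the vitamin D receptor, had 16 and 33 UMIs in 5 of 29 untreated and 8 of 38 VD3 cells, but most of them lay in mixed cells. Among unmixed cells 1 of 24 untreated (4.17%) and 3 of 31 VD3 cells (9.68%) had a UMI. Macrophages had it in 45.8% and 85.1% of cells, neutrophil precursors in 13.7% and 59.1% and neutrophils in 10.3% and 16.7%. The share of unmixed basophil-like cells with Vdr was thus below that of the neutrophils in both cultures, within wide intervals. Mixed cells were not left out of the neutrophils or precursors, and the part of macrophage RNA in their Vdr was not tested. At 1000 UMIs per cell Vdr was in 0% (95% limit 12.3%) and 5.26% of all basophil-like cells, against 2.51% and 13.5% of macrophages, and Cyp24a1 in 0% (95% limit 12.3%) and 2.63%, against 0% (95% limit 0.140%) and 37.8%. Rxra, a partner of the receptor, had 4 and 2 UMIs, and Rxrb, another, had 12 and 15 UMIs. Of 9 genes of the vitamin D pathway compared 2 were higher (Cyp24a1 and Vdr) and 0 lower, with a median log2 ratio of 0.42. Of 11 known targets 4 were higher (Cyp24a1, Vdr, Hbegf and Dusp1) and 0 lower, with a median of 0.30, where 3.03% of all genes were higher and 6.22% lower. Both medians take Cyp24a1 at its bound. Vdr was at 1.34, and at 0.34 when 2 receptor and Gata2 UMIs were required. Under that requirement 1 of 9 known targets was higher and 2 were lower, with a median of -0.02. Without mixed cells 2 of 6 targets and 0 of 4 pathway genes were higher. Under a limit of 5% mitochondrial UMIs 0 of 5 targets were higher. Of all genes, 3.09% were higher and 8.36% lower when 2 receptor and Gata2 UMIs were required. Without mixed cells 3.73% of all genes were higher, and under the 5% limit 3.40%.

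**Figure D3:**
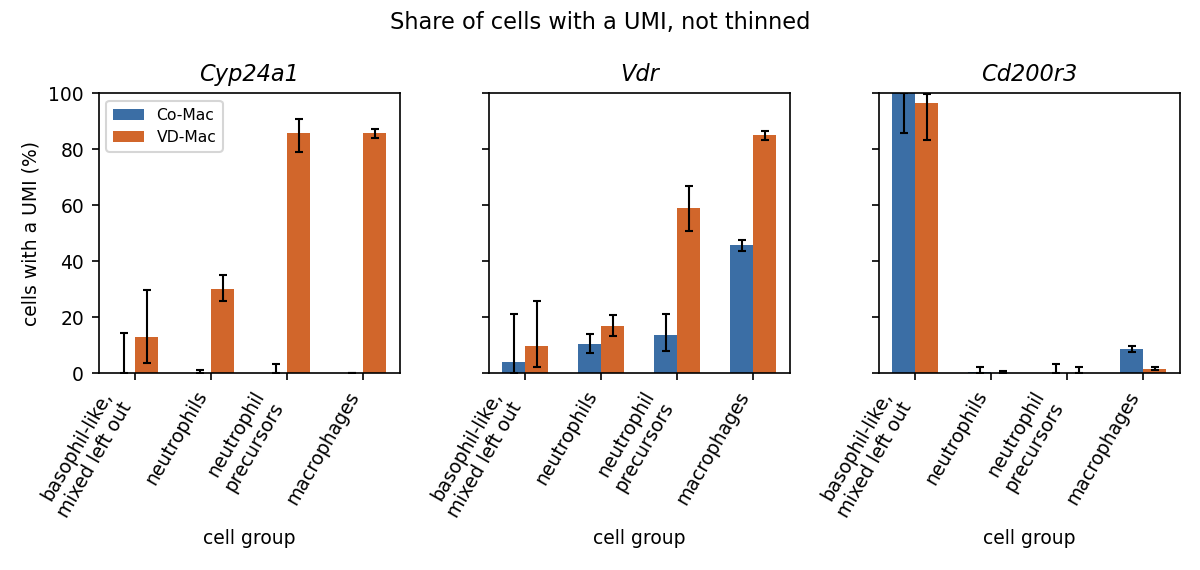
Bars give the percentage of cells with at least 1 UMI of Cyp24a1, Vdr and Cd200r3 at full depth (y axis) in basophil-like cells with mixed cells left out, neutrophils, neutrophil precursors and macrophages (x axis), in blue for Co-Mac and orange for VD-Mac, with exact 95% intervals. Basophil-like cells were low for Cyp24a1 and Vdr and high for Cd200r3. Mixed cells were left out of the basophil-like cells only.

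Promoters of genes of these cells were searched for AGATAA, a motif of GATA factors such as Gata2, on both strands (TTATCT is its reverse complement). In the RefSeq promoters of build GRCm38.p6, which span 250 bases before to 50 bases after each start, 3672 of 32851 held it (11.2%). Of the 6 rule genes 4 had it and Mcpt8 and Gata2 did not (4 of 7 promoters). Of the 20 leading genes 15 matched a promoter and 3 held the motif (Cd200r3, Grm6 and Il1rl1). These are letter matches and say nothing of binding. The following stretches, read 5′ to 3′ on the gene's strand, show a match in each of these rule genes and in Cd200r3, with the motif in capitals. Ms4a2 has other matches, which begin at -11 and -224 bases from its start, and the stretch shown ends inside that at -11. They lie at chr3:20242197-20242252 (minus strand) for Cpa3, chr17:25298338-25298393 (plus strand) for Prss34, chr1:173227291-173227346 (minus strand) for Fcer1a, chr19:11623726-11623781 (minus strand) for Ms4a2 and chr16:44943614-44943669 (plus strand) for Cd200r3. All end before the start of the gene's transcript.
Cpa3: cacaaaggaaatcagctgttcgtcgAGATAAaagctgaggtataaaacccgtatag
Prss34: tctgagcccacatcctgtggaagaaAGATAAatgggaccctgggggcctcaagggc
Fcer1a: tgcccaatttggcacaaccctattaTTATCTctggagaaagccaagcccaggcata
Ms4a2: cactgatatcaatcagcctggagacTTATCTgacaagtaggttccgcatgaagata
Cd200r3: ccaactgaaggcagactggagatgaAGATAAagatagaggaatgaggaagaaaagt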

How the data were processed

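UMI counts per gene and barcode were those deposited by the authors, made with Cell Ranger (3.1.0 in the matrix header). The submitters' notes also name Seurat 3.1.1 and build mm9, and the mouse gene identifiers matched GENCODE M21 on GRCm38, which gave all coordinates. The deposited values are raw UMI counts. Barcodes were kept and basophil-like cells chosen by the rule given above, in Python 3.11.15 with numpy 2.4.6, scipy 1.17.1, pandas 2.3.3 and matplotlib 3.10.9. The cells and gene lists were chosen with earlier results of these data known.

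Levels are CPM of summed UMIs with exact Poisson intervals, shares have exact Clopper-Pearson intervals, and ratios between cultures have exact conditional binomial intervals, all at 95% and for counting error only. Ratios were taken for genes with 20 or more UMIs in the basophil-like cells and called at 2-fold. A gene with 0 UMIs in a library was set to 3 counts. Reduction to 1000 UMIs was without replacement, and shallower cells were left out. Neutrophil precursors had at least 5 UMIs of Elane, Mpo and Prtn3, and neutrophils at least 100 of S100a8 and S100a9, neither being macrophages. Named genes were those of the lists, the 20 genes most above other cells (100 CPM or more, in 25% or more of cells), and, for VD3 over untreated, the 10 largest ratios in each direction at or above the level of other cells and 5 below it. Doublets were kept and no doublet caller was run. The alternatives changed the cell filters, the thresholds of the rule, the scaling, the UMI minimum, the fold and the depth, or left out deep, mixed or eosinophil granule cells or the cell with most UMIs of a gene. The ratio between cultures, its interval and the 2-fold call were tested on simulated data. Those data were summed counts per gene without cells, so UMIs gathered in single cells were not covered. With 1 library per condition no test between conditions was made. The genes compared above and below the G2 and M limit, and Cebpe and Arsb, were chosen after their values were seen. Some listed genes are not reported here.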

Additional observations from a re-analysis of the deposited data

Results flagged for a closer look

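In the graft library, taken from human skin grafts carried by mice for 14 days and used in no comparison of the cultures, 10 kept cells met the rule for basophil-like cells. Akr1c18 moved in opposite directions with VD3, with a log2 ratio of 1.59 in basophil-like cells and -3.78 in the other kept cells, where it lay under 1 CPM in both cultures. Epx did so too, at -2.90 in basophil-like cells and 1.46 in the other cells, where it too lay under 1 CPM in both cultures, and its UMIs lay in 4 and 2 basophil-like cells. These differences were not tested, since each condition had 1 library.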

How the results depend on the processing

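Of 3567 values recomputed under another setting, 3170 stayed within the 95% interval of the value reported (or, for counts of genes, within 1.5-fold of it), 387 moved outside, and 10 values of genes past 2-fold as reported changed sign. Gene ratios made up 3201 of them, of which 287 moved, and list ratios 252, of which 81 moved. With a limit of 5% mitochondrial UMIs the share of basophil-like cells was 0.672% untreated and 0.801% with VD3, in place of 0.400% and 0.431%, where fewer cells were kept (3125 and 3619). The count of genes higher with VD3, 175 as reported, was 334 with each cell weighted the same, 32 at 50 or more UMIs and 653 at 1.5-fold. The count of lower genes, 359 of 5775 as reported (6.22%), was 181 of 3790 under 5% mitochondrial UMIs (4.78%), 189 of 3964 without mixed cells (4.77%), 91 at 50 or more UMIs and 947 at 1.5-fold. The higher minimum, the 5% limit and the loss of mixed cells leave fewer genes to compare and the smaller fold admits more, and other causes were not tested.

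Of the 60 genes past 2-fold as reported and followed through the settings, 3 changed sign. Lyz2 had a log2 ratio of -1.73 as reported, 1.05 under 5% mitochondrial UMIs and 1.16 without mixed cells. Prkcd had -1.002, and 0.25 under 5% mitochondrial UMIs, 0.16 without the deepest 5% of cells and 0.00203 without mixed cells. S100a8 had -1.42, and 2.73 under 5% mitochondrial UMIs, 0.72 and 1.82 at protease sums of at least 10 and 50 UMIs, 0.99 with at least 2 receptor and Gata2 UMIs and 2.41 without mixed cells. Of 177 genes under 2-fold as reported, 86 changed sign under some setting, and 10 of them then passed 2-fold. Among these were Cd74 (0.12 to -1.31), H2-Aa (0.19 to -1.28), H2-Ab1 (0.44 to -1.26) and H2-Eb1 (0.09 to -1.89) under 5% mitochondrial UMIs and Il6 (0.06 to -1.09) with each cell weighted the same. The cause was not tested. Leaving out the eosinophil granule cells (197 higher, 292 lower), and for each gene the cell with most of its UMIs (174 higher, 260 lower), were alternatives chosen after seeing the data.

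No paired analysis was possible because each condition had 1 library and nothing joined cells across them. The 29 and 38 cells come from 1 library each, so the spread between cultures is unknown, and culture, library and VD3 cannot be told apart. A gene with under 20 UMIs under a setting gave no value there. Ratios of genes near 20 UMIs have wide intervals, and single deep cells carry many of them.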

Other observations

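The graft library (cells from human skin grafts in 5 mice, day 14, 1 library) held 10 of 2144 kept cells that met the same rule, with 68529 UMIs and a median of 4588.5 per cell. Their cytokine genes were far above those of the cultures. Il4 had 11192 CPM in 7 cells (767 UMIs, 325 of them in 1 cell), and Il6 12506 CPM and Il13 3225 CPM in all 10. Csf2, which had 0 UMIs in the cultured basophil-like cells, had 6246 CPM in 4 cells (428 UMIs, 241 of them in 1 cell). The chemokine genes Ccl3 and Ccl4 had 36028.5 and 45222 CPM. In the other 2134 graft cells Il4 had 38.6, Il6 142, Il13 14.5 and Csf2 12.3 CPM, and Ccl3 and Ccl4 had 619 and 893 CPM. RNA of all these genes was thus also found outside the 10 cells. Hdc was at 9470.4 CPM, against 158 in the other graft cells, and the granule protease Gzmb at 4918, against 1 and 0 UMIs in the cultured cells. Mcpt8 and Gata2 were present, at 6961 and 1415 CPM, and Cyp11a1 had 1372 CPM, but 285 of the 477 Mcpt8 UMIs lay in 1 cell. That cell held 24423 UMIs, among them 231 of Il6, 191 of Il4 and 145 of Lyz2, a gene of macrophages and neutrophils, and whether the barcode held more than 1 cell was not tested. Fcer1a and Ms4a2 had 1 and 3 UMIs, 14.6 (95% interval 0.369 to 81.3) and 43.8 (9.03 to 128) CPM, where the untreated cultured cells had 617 and 488 CPM. Cpa3 and Prss34 were low, at 117 and 87.6 CPM, where the cultured cells had 1538 and 5144 CPM untreated. Prg2, Epx, Mki67 and Kit had 0 UMIs, which at the 95% limit allows up to 53.8 CPM each. Tissue, digestion, library and depth differed together between the graft and the cultures, so their parts cannot be told apart, and no test was made.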
